A study of Mus musculus with 9 samples.

Results

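The genes examined here are 8 genes of adipocyte differentiation and lipid storage, Cebpa, Cebpb, Cebpd, Cebpg, Pparg, Plin2, Lpl and Pnpla2, chosen by name. All 8 were found among the 11931 genes of the deposited expression values. They were measured in normal mammary fibroblasts (NMF) from the mammary fat pad of female BALB/c mice aged 12 weeks, in 3 groups of 3 libraries. Fibroblasts were grown with 4T1-GFP cells for 3 days, with 4T1-GFP cells for 5 days, or alone for 5 days. 4T1 is a mouse mammary carcinoma line, here labelled with green fluorescent protein (GFP). Fibroblasts of every group had first recovered on a collagen layer for 1 week and were sorted as GFP-negative, PDPN-positive cells, PDPN being the surface glycoprotein podoplanin. No monoculture was sampled at 3 days, so that in the 3-day comparison co-culture and days in culture cannot be told apart. The labels do not say whether replicates were separate cultures or animals, so that p-values measure the spread between libraries, which may be technical.

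The fat pad stroma holds fibroblasts that can become adipocytes. In cultured preadipocytes, the CCAAT/enhancer-binding proteins C/EBPβ and C/EBPδ act early and switch on C/EBPα and the nuclear receptor PPARγ, which then sustain each other and drive the genes of fat storage. Lipoprotein lipase, encoded by Lpl, releases fatty acids from circulating triglyceride. Perilipin 2, encoded by Plin2, coats lipid droplets in many cell types, and adipose triglyceride lipase, encoded by Pnpla2, starts the breakdown of the stored triglyceride.

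The start regions of 2 of these genes are shown because C/EBP proteins are known to act on Pparg, and PPAR receptors on Plin2, which changed in opposite directions. Both are RefSeq windows on GRCm38.p6, the build also called mm10, from 250 bases before to 50 bases after a transcript start. The Pparg window (chr6:115421816-115422115, plus strand) is the most downstream of its 3 listed starts, the start of the annotated transcript Pparg-201, and the 3′ end reads do not tell which start was used. The Plin2 window is chr4:86670010-86670309 on the minus strand. Capitals mark the C/EBP-type motif TTGCNNAA in Pparg and the receptor-type hexamer AGGTCA, read on the opposite strand as TGACCT, in Plin2.
Pparg: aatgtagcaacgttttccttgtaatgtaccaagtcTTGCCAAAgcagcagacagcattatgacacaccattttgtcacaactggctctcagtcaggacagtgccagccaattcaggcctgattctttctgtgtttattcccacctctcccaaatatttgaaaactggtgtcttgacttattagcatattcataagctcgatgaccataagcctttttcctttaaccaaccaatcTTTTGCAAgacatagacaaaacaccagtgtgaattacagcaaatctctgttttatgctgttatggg
Plin2: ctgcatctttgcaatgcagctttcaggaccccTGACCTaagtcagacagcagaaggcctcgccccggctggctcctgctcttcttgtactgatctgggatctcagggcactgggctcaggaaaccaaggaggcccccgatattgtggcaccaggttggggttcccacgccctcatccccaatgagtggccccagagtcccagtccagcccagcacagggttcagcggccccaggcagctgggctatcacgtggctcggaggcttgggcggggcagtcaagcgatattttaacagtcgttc

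The motifs were searched on both strands of the 8 windows listed for 6 of the genes, namely Cebpa, Cebpb, Cebpg, Pparg, Plin2 and Pnpla2; Cebpd and Lpl have no entry. TTGCNNAA was found in the Pparg window printed above, once on each strand, and in 10.8% of all 32851 windows of the same length. The hexamer AGGTCA was found in the Plin2 window and in the other 2 Pparg windows, and in 16.3% of all windows. Its direct repeat, AGGTCANAGGTCA, which contains the hexamer, was found in none of the 8 windows and in 0.0396% of all. A match in these letters is a description of the sequence.

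Values are normalised read counts from 3′ end mRNA libraries, that is, read counts per gene divided by a factor for each library. Whole reads were recovered from them, 1048471 to 2579766 per library after 3 days of co-culture, 1459381 to 1987168 after 5 days and 2623911 to 3567326 in monoculture, so that the monocultures were the deepest. A gene entered the limma test, run on log2(value + 1), if 3 or more of the 9 libraries reached 5 normalised counts, which left 10639 genes. A gene is called higher or lower where the Benjamini-Hochberg adjusted p over all of them is under 0.05. Of the 8 genes, 7 were tested. Cebpg did not reach the filter, and Cebpd and Pparg reached it in 4 libraries each, 3 of which were monocultures, so that their passing depended on the group where they were high.

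After 5 days of co-culture, 5 of the 7 tested genes fell against monoculture of the same length, Cebpa, Cebpb, Cebpd, Pparg and Lpl, while Plin2 rose and Pnpla2 was not called. Of all 10639 genes, 11.4% were lower and 12.6% higher in that comparison. After 3 days, Pparg and Lpl were lower than in the 5-day monocultures and Plin2 was higher, against a background of 9.37% lower and 10.6% higher. Between the co-cultures, Cebpa, Cebpb and Cebpd were lower and Plin2 higher at 5 days than at 3 days, against a background of 3.71% lower and 3.2% higher. The median log2 fold change of the 7 genes was -0.80 at 3 days, -1.77 at 5 days and -1.08 between the co-cultures, while that of all genes was 0.0014, -0.0078 and -0.0052. The comparisons with monoculture share the same 3 monoculture libraries. In these bulk samples, fewer cells of a type and less RNA per cell cannot be told apart.

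**Figure D1:**
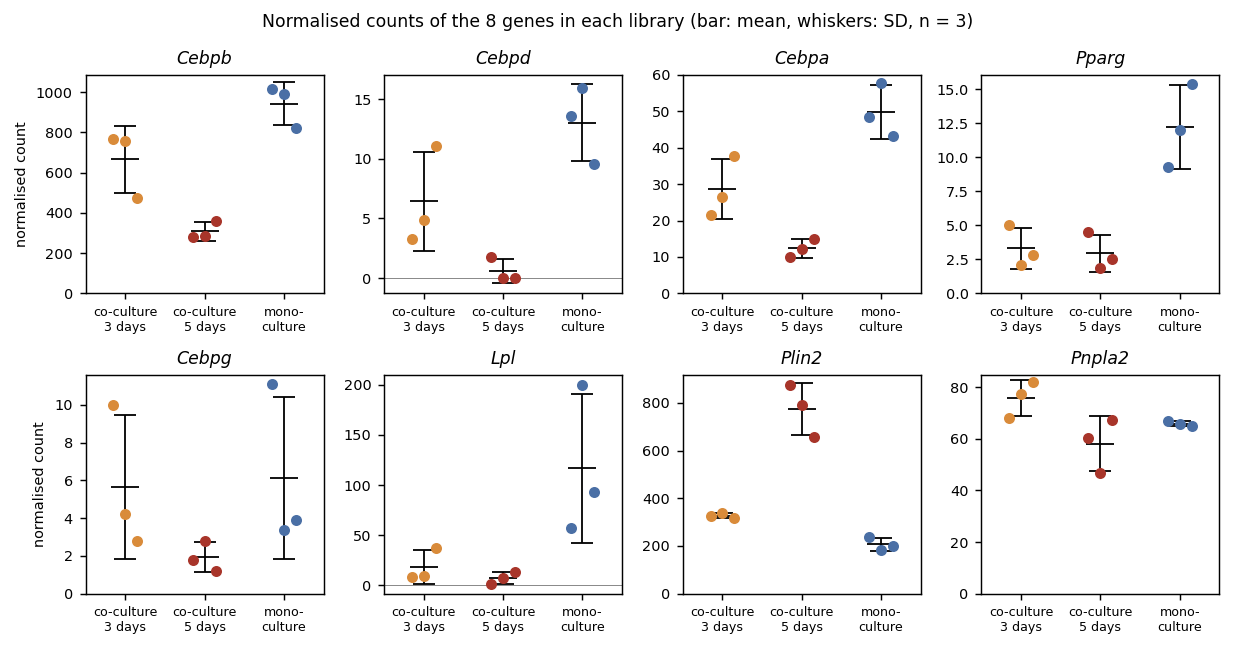
Normalised counts of the 8 genes (vertical axes, linear, 1 scale per gene) in each of the 9 libraries, by group (horizontal axes), with the mean and SD of 3 libraries. Cebpb, Cebpd and Cebpa had their lowest means in the 5-day co-cultures and their highest in the monocultures, Plin2 was highest in the 5-day co-cultures at 656.7 to 873.3, and Pnpla2 stayed between 46.6 and 82.1 in all libraries.

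Cebpb (chromosome 2, 167688915 to 167690418, plus strand, mm10, GENCODE M21, a protein-coding gene) encodes the C/EBP that acts early in adipocyte differentiation and also takes part in inflammatory responses. It had normalised counts of 765.5, 758.8 and 473 after 3 days of co-culture, 279.4, 285 and 362 after 5 days, and 1017.5, 988.3 and 821.4 in monoculture. The 3 groups did not overlap: every 5-day library lay below every 3-day library, and every 3-day library below every monoculture. Its mean was 308.8 ± 46.2 after 5 days against 942.4 ± 106 in monoculture (SD, n = 3 each), 3.05-fold lower, a log2 fold change of -1.61 ± 0.20 (SE, limma adjusted p = 2.6e-05). Between the co-cultures, Cebpb was 1.08 lower at 5 days on the log2 scale (95% interval -1.51 to -0.65, limma adjusted p = 0.0045). At 3 days against monoculture the change of -0.53 (-0.96 to -0.10) was not called, at limma adjusted p = 0.080. None of the 20 alternative fits changed these 3 outcomes.

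Cebpd (chromosome 16, 15887286 to 15891031, plus strand, a protein-coding gene), whose product acts beside C/EBPβ, had low counts throughout. It stood at 3.3, 4.9 and 11.1 after 3 days of co-culture, 1.8, 0 and 0 after 5 days, and 13.6, 15.9 and 9.6 in monoculture. In whole reads these were 17 over the 3-day libraries, 2 over the 5-day libraries and 70 over the monocultures. The 5-day values lay below all others, and the 3-day values overlapped those of monoculture. Scaled for depth, the 5-day reads were 0.0502 times those of monoculture, with an exact 95% counting interval of 0.00597 to 0.188, and 0.109 times those of the 3-day co-cultures (0.0122 to 0.457). These intervals cover counting error only, because the sources used here name no molecular identifiers, and PCR copies may then be counted as molecules.

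The fall of Cebpd was called at 5 days against monoculture (limma adjusted p = 0.00037), with a fitted log2 fold change that ran from -4.32 to -1.69 over 19 alternatives, all of them called. It was also called between the co-cultures (limma adjusted p = 0.021), but there the call was lost with DESeq2 (adjusted p = 0.075) and with only the compared groups in the model (limma adjusted p = 0.061). It was lost as well without 3-day replicate 2 (limma adjusted p = 0.063) or 3 (0.074) and without 5-day replicate 2 (0.073) or 3 (0.074), within a range of 0.014 to 0.075, and the fitted log2 fold change ran from -3.26 to -0.99. The change at 3 days against monoculture, -1.03 on the log2 scale, was not called (limma adjusted p = 0.21).

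Cebpa (chromosome 7, 35119293 to 35121928, plus strand, a protein-coding gene) encodes the C/EBP that maintains the differentiated adipocyte. Its normalised counts were 21.6, 26.5 and 37.6 after 3 days of co-culture, 9.9, 12.1 and 15 after 5 days, and 48.3, 57.7 and 43.1 in monoculture. As with Cebpb, the groups followed each other without overlap, with the 5-day libraries lowest. Its mean after 5 days was 12.3 ± 2.6 against 49.7 ± 7.4 in monoculture (SD, n = 3 each), 4.03-fold lower, a log2 fold change of -1.93 ± 0.29 (SE, limma adjusted p = 0.00012). At 3 days the change of -0.80 (95% interval -1.41 to -0.20) narrowly missed the threshold, at limma adjusted p = 0.059, whereas edgeR on the recovered reads called it (adjusted p = 0.039), as did limma without 3-day replicate 3 (adjusted p = 0.031). The adjusted p of that comparison ran from 0.031 to 0.20 over the alternatives.

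Between the co-cultures Cebpa was 1.13 lower at 5 days on the log2 scale (95% interval -1.74 to -0.52, limma adjusted p = 0.026). This call was lost with only the compared groups in the model (limma adjusted p = 0.059), without 3-day replicate 2 (0.076) or 3 (0.081) and without 5-day replicate 1 (0.093) or 2 (0.065), within a range of 0.023 to 0.093.

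Pparg (chromosome 6, 115360951 to 115490399, plus strand, a protein-coding gene) encodes PPARγ, the nuclear receptor required for adipocyte formation. It had normalised counts of 5, 2.1 and 2.8 after 3 days of co-culture, 4.5, 1.9 and 2.5 after 5 days, and 9.3, 12 and 15.4 in monoculture. All 6 co-culture libraries lay below all 3 monocultures, and the co-cultures overlapped each other. The values rested on 8 reads over the 3-day libraries, 9 over the 5-day libraries and 64 over the monocultures. The mean was 3.30 ± 1.51 after 3 days against 12.2 ± 3.1 in monoculture (SD, n = 3 each), a log2 fold change of -1.65 ± 0.46 (SE, limma adjusted p = 0.018). After 5 days it was 2.97 ± 1.36, a log2 fold change of -1.77 ± 0.46 (SE, limma adjusted p = 0.010).

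Without monoculture replicate 3, Pparg lost its call at 3 days (limma adjusted p = 0.10) and at 5 days (0.068). The 3-day call was also lost without 3-day replicate 2 (limma adjusted p = 0.068) and without monoculture replicate 2 (0.068), within a range of 0.0087 to 0.10, and the range at 5 days was 0.0053 to 0.068. Its fitted log2 fold changes ran from -2.03 to -1.05 at 3 days and from -2.04 to -1.11 at 5 days, depending on the alternative. Between the co-cultures the difference, 5 days over 3 days, was -0.11 (95% interval -1.09 to 0.86, limma adjusted p = 0.92), an interval wide enough to hold a clear change in either direction.

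Cebpg (chromosome 7, 35046422 to 35056573, minus strand, a protein-coding gene) encodes a short C/EBP without the usual activation domain, which pairs with other bZIP proteins. It was at the edge of detection, with 10, 4.2 and 2.8 normalised counts after 3 days of co-culture, 1.8, 2.8 and 1.2 after 5 days, and 11.1, 3.4 and 3.9 in monoculture. The 5-day libraries lay below the monocultures and overlapped the 3-day co-cultures at 2.8. The depth-scaled reads at 5 days, 6 in all, were 0.340 times the 31 of monoculture, with an exact 95% counting interval of 0.116 to 0.828. Cebpg was not among the genes tested, so no adjusted p is given.

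Lpl (chromosome 8, 68880491 to 68907448, plus strand, a protein-coding gene) showed the lowest ratio of co-culture to monoculture among the genes that had more than 3 reads in every group. It had normalised counts of 8.3, 9 and 37.6 after 3 days of co-culture, 1.8, 7.5 and 13.7 after 5 days, and 56.9, 200 and 93.2 in monoculture. Every co-culture library lay below every monoculture, with a wide spread within each group. The mean was 18.3 ± 16.7 after 3 days and 7.67 ± 5.95 after 5 days, against 116.7 ± 74.4 in monoculture (SD, n = 3 each). The log2 fold change was -2.75 ± 0.61 at 3 days (SE, limma adjusted p = 0.0043) and -3.87 ± 0.61 at 5 days (SE, limma adjusted p = 0.00022).

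Single libraries moved these sizes but not the calls: without 3-day replicate 3 the 3-day change of Lpl was -3.42, and without 5-day replicate 1 the 5-day change was -3.21. The difference between the co-cultures, -1.12 (95% interval -2.41 to 0.17), was not called, at limma adjusted p = 0.30. Macrophages are also known to make Lpl. Among the monocultures, replicate 2 had both the highest Lpl and the highest summed macrophage markers, 291.4 against 105.2 in replicate 1 and 99.6 in replicate 3. Among the 3-day co-cultures, replicate 2 had the highest macrophage markers of all libraries, 377.3, with Lpl at 9. The part of such cells in the Lpl values was not tested further.

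Plin2 (chromosome 4, 86648386 to 86670060, minus strand, a protein-coding gene) rose at both times, the only rise among the 7 tested genes. It had normalised counts of 327.1, 338.3 and 317.2 after 3 days of co-culture, 873.3, 789.8 and 656.7 after 5 days, and 236.4, 184.1 and 201.8 in monoculture. The groups did not overlap, with monocultures lowest and 5-day co-cultures highest. The mean was 773.3 ± 109 after 5 days against 207.4 ± 26.6 in monoculture (SD, n = 3 each), 3.73-fold higher, a log2 fold change of 1.89 ± 0.17 (SE, limma adjusted p = 8.1e-07). After 3 days it was 327.5 ± 10.6, a log2 fold change of 0.66 ± 0.17 (SE, limma adjusted p = 0.012). Between the co-cultures it was 2.36-fold higher at 5 days, 1.23 on the log2 scale (95% interval 0.86 to 1.59, limma adjusted p = 0.00046). The 3-day call alone was lost without a library, monoculture replicate 2 (limma adjusted p = 0.061, within a range of 0.0057 to 0.061), with a log2 fold change of 0.58.

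Pnpla2 (chromosome 7, 141455198 to 141460743, plus strand, a protein-coding gene) was called in none of the comparisons. Its normalised counts were 68.1, 77.3 and 82.1 after 3 days of co-culture, 60.2, 46.6 and 67.4 after 5 days, and 66.8, 65.9 and 64.9 in monoculture. The 3-day libraries lay above the others by a small margin. Against monoculture, the log2 fold change at 3 days was 0.20, with a 95% interval of -0.25 to 0.64 (limma adjusted p = 0.56), and at 5 days -0.20, with one of -0.64 to 0.25 (limma adjusted p = 0.55). Between the co-cultures it was -0.39 (-0.83 to 0.05, limma adjusted p = 0.29). For each of the 8 genes, the exact two-sided permutation p of 3 against 3 libraries cannot go below 0.1, the value it took wherever groups did not overlap.

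**Figure D2:**
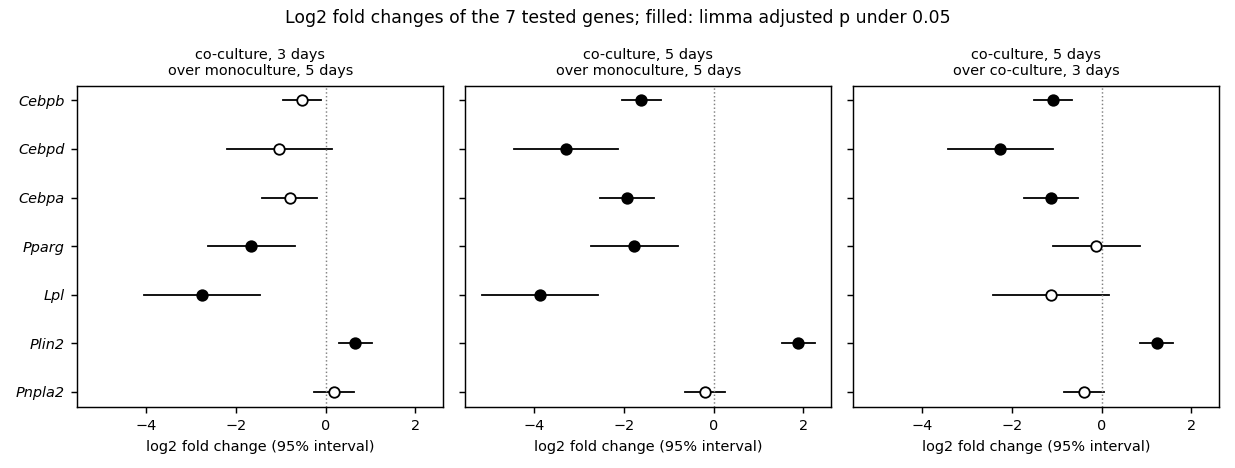
Log2 fold changes with 95% intervals (horizontal axis) of the 7 tested genes (rows) in the 3 comparisons (panels), with filled points for limma adjusted p under 0.05. At 5 days against monoculture 5 genes lie left of 0 and filled, Plin2 lies right of 0 at 1.89, and Pnpla2 is open at -0.20; Pparg is near 0 only between the co-cultures.

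Neighbouring genes bear on the counts, since the strand setting of the counting is not given in the sources used here. In GENCODE M21, exons of Cebpd share 562 bases with exons of Spidr on the opposite strand, and exons of Cebpb share 312 bases with Tmem189 on the opposite strand. Spidr averaged 32.1 after 3 days of co-culture, 34.2 after 5 days and 28.3 in monoculture, and Tmem189 averaged 42.0 after 3 days, 56.8 after 5 days and 62.8 in monoculture. Cebpa shares 51 exonic bases with the antisense transcript Gm45091, and Cebpg shares 73 with Gm44836 on its own strand and 4 with the antisense transcript Gm45095; the values of these 3 transcripts were not analysed here. Without strand, reads of opposite-strand pairs cannot be told apart, nor can reads in exons shared on 1 strand, and the levels of Cebpd, Cebpb, Cebpa and Cebpg are uncertain to that extent. Plin2, Lpl and Pnpla2 overlap no other annotated gene.

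For each tested gene, the genes with the most similar pattern were sought among 7364 others with a mean of at least 20, by the root mean square difference of log2(value + 1) over the 9 libraries, each gene centred on its own mean. Plin2 was most like Fdps, an enzyme gene of cholesterol synthesis, at 0.17 log2 units, followed by Kctd11 at 0.21. Fdps averaged 269.5 after 3 days of co-culture, 595.8 after 5 days and 177.2 in monoculture. Cebpa was most like Cxcl14, a chemokine gene (0.18), and Egr1, an immediate early gene (0.24). Cebpb was most like Tcea3 (0.17) and Mmp23 (0.18), and Pnpla2 most like P2rx4 (0.10). The other tested genes were matched less closely: the nearest were Vamp2 for Pparg (0.31), Tgfbr3 for Cebpd (0.63) and Cemip for Lpl (0.69). Pparg and Cebpd averaged 6.17 and 6.69 over all libraries, so that genes as sparse as these were not among those searched.

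The wider set of nuclear factors that favour adipocyte differentiation moved both ways. Of 16 tested, 1 rose and 7 fell at 5 days, with a median log2 fold change of -0.67 against -0.0078 for all genes. The shares over all genes were 12.6% higher and 11.4% lower. Nr1h3, which encodes the liver X receptor LXRα, averaged 2.37 ± 1.40 after 5 days against 22.9 ± 10.7 in monoculture, and Rxra, which encodes the partner receptor of PPARγ, 79.3 ± 16.3 against 178.1 ± 9.4 (SD, n = 3 each; limma adjusted p = 0.00056 and 0.00076). Nr1h3 passed the filter on low values only through the monocultures. Nfia, a factor of brown and white fat cells, stood at 8.20 ± 2.31 against 35.4 ± 3.2 (limma adjusted p = 0.0017), and Nr3c1, the glucocorticoid receptor gene, at 34.5 ± 6.9 against 75.0 ± 13.5 (limma adjusted p = 0.010). The gene that rose was Klf5, a Krüppel-like factor downstream of C/EBPβ in preadipocytes, at 24.6 ± 8.0 against 11.3 ± 4.0 (limma adjusted p = 0.028).

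At 3 days 5 of these 16 factors rose and 8 fell, where 10.6% of all genes were higher and 9.37% lower. Stat5a, Klf5, Klf15 and Rxrb were among those that rose, with Stat5a at 51.7 ± 9.6 against 25.2 ± 6.4 in monoculture (SD, n = 3 each; limma adjusted p = 0.011). Nfia, Ebf1, Nr1h3 and Stat5b were among those that fell, with Ebf1, an early factor of the adipocyte lineage, at 27.0 ± 7.7 against 89.8 ± 26.7 (limma adjusted p = 0.00060). Between the co-cultures 1 of the 16 was called, where 3.2% of all genes were higher and 3.71% lower. This was Klf15, which was lower at 5 days, 4.13 ± 1.25 against 14.6 ± 1.8 at 3 days (limma adjusted p = 0.041).

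Factors listed as restraining adipocyte differentiation also moved both ways, 4 higher and 6 lower of 19 tested at 5 days, and 2 higher and 6 lower at 3 days. The shares over all genes were 12.6% higher and 11.4% lower at 5 days, and 10.6% and 9.37% at 3 days. Hes1, the Notch target, fell to 407.2 ± 49.3 after 5 days against 1255 ± 203 in monoculture (SD, n = 3 each, limma adjusted p = 8.8e-06). Id2 fell to 41.2 ± 12.9 against 144.4 ± 22.0 (limma adjusted p = 4.6e-05). It is counted among the lower genes at both times, though it is not clearly a restraining factor. Gata3, which represses Pparg in preadipocytes, rose to 29.97 ± 2.02 against 8.67 ± 1.12 (limma adjusted p = 0.0012), and Foxc2 to 55.0 ± 7.7 against 29.3 ± 5.6 (0.012). Wnt10b, also counted as higher at 5 days, passed the filter on low values only through the 5-day co-cultures. It averaged 6.87 there, 1.03 after 3 days and 1.17 in monoculture. At 3 days the genes that rose were Trib3 and Ddit3. Ddit3 encodes CHOP, a C/EBP relative that blocks DNA binding by its partners, and averaged 654.1 ± 117 against 194.5 ± 71.1 in monoculture (limma adjusted p = 4.1e-05). At 5 days it averaged 264.9 ± 17.5 and was not called (limma adjusted p = 0.12). Between the co-cultures it was lower at 5 days (limma adjusted p = 0.0030).

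Among 8 tested bZIP relatives and Tribbles genes, some of them also on the list of restraining factors, 2 rose and 4 fell at 5 days, and 3 rose and 3 fell at 3 days. The shares over all genes were 12.6% higher and 11.4% lower at 5 days, and 10.6% and 9.37% at 3 days. Atf5, a bZIP factor gene, fell to 755.2 ± 75.6 after 5 days against 2131 ± 272 in monoculture (SD, n = 3 each; limma adjusted p = 9.0e-06). Trib1 and Trib2 encode pseudokinases that bring C/EBPα to degradation. Trib2 fell to 20.5 ± 5.4 against 74.9 ± 17.6 (limma adjusted p = 0.00012) and Trib1 to 143.0 ± 12.8 against 257.1 ± 12.1 (0.0021). Trib3 and Atf4 rose at both times.

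Genes around Lpl and fatty acid uptake gave 2 higher and 3 lower of 13 tested at 5 days, and 1 higher and 4 lower at 3 days. The counts of higher genes are near the shares over all genes, 12.6% at 5 days and 10.6% at 3 days. Of all genes, 11.4% were lower at 5 days and 9.37% at 3 days. Fabp4, which encodes the fatty acid-binding protein of adipocytes and is a known target of PPARγ, fell to 14.4 ± 8.8 after 3 days and 12.4 ± 3.6 after 5 days, against 125.8 ± 28.2 in monoculture (SD, n = 3 each; limma adjusted p = 4.4e-05 and 2.6e-05). Scarb1, the HDL receptor gene, rose at 5 days to 107.0 ± 16.9 against 47.3 ± 10.1 in monoculture (limma adjusted p = 0.0010). The regulators of lipoprotein lipase itself were not called: Lmf1, which matures the enzyme, averaged 56.2 after 3 days, 49.7 after 5 days and 75.3 in monoculture, and Angptl4, which inhibits it, 700.6 after 3 days, 715.2 after 5 days and 789.4 in monoculture.

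Of 7 tested lipid droplet proteins besides Plin2, 1 rose and 2 fell at 5 days, 0 rose and 1 fell at 3 days, and none was called between the co-cultures. Of all genes, 12.6% were higher and 11.4% lower at 5 days, and 10.6% higher and 9.37% lower at 3 days, so that counts of 1 among 7 are near the background. Plin3, a perilipin of small droplets, rose at 5 days to 284.0 ± 30.2 against 198.5 ± 26.3 in monoculture (SD, n = 3 each; limma adjusted p = 0.040), 0.52 on the log2 scale beside 1.89 for Plin2. Hilpda, which encodes an inhibitor of the Pnpla2 lipase, fell to 79.4 ± 8.9 against 141.9 ± 47.3 (limma adjusted p = 0.026), and Bscl2, the seipin gene of droplet assembly, to 121.7 ± 13.6 against 207.5 ± 2.6 (0.0039). At 3 days Hilpda was at 60.6 ± 9.1 (limma adjusted p = 0.0025).

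Lipolysis genes gave 1 call at each time, both lower, of 9 tested, a share near that of all genes, 11.4% at 5 days and 9.37% at 3 days. G0s2, another inhibitor of the Pnpla2 lipase, fell at 5 days to 9.43 ± 4.07 against 27.6 ± 10.4 in monoculture (limma adjusted p = 0.016). Abhd5, its co-activator, fell at 3 days to 10.1 ± 3.1 against 25.3 ± 9.3 (limma adjusted p = 0.037), and at 5 days stood at 22.5 without a call. Of 12 tested genes of triglyceride synthesis, 3 rose and 2 fell at 5 days, and 2 rose and 0 fell at 3 days. The shares of all genes that were higher were 12.6% at 5 days and 10.6% at 3 days. Acsl4, an acyl-CoA synthetase gene for polyunsaturated fatty acids, rose at 5 days to 253.9 ± 101 against 69.6 ± 24.0 (limma adjusted p = 0.0018), and Lpin3 to 96.4 ± 14.6 against 37.4 ± 2.9 (0.00035). Dgat2, which completes triglyceride synthesis, fell to 12.8 ± 4.6 against 31.2 ± 4.2 (limma adjusted p = 0.0065), and Agpat2 to 41.1 ± 8.9 against 88.0 ± 12.1 (0.0033).

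**Figure D3:**
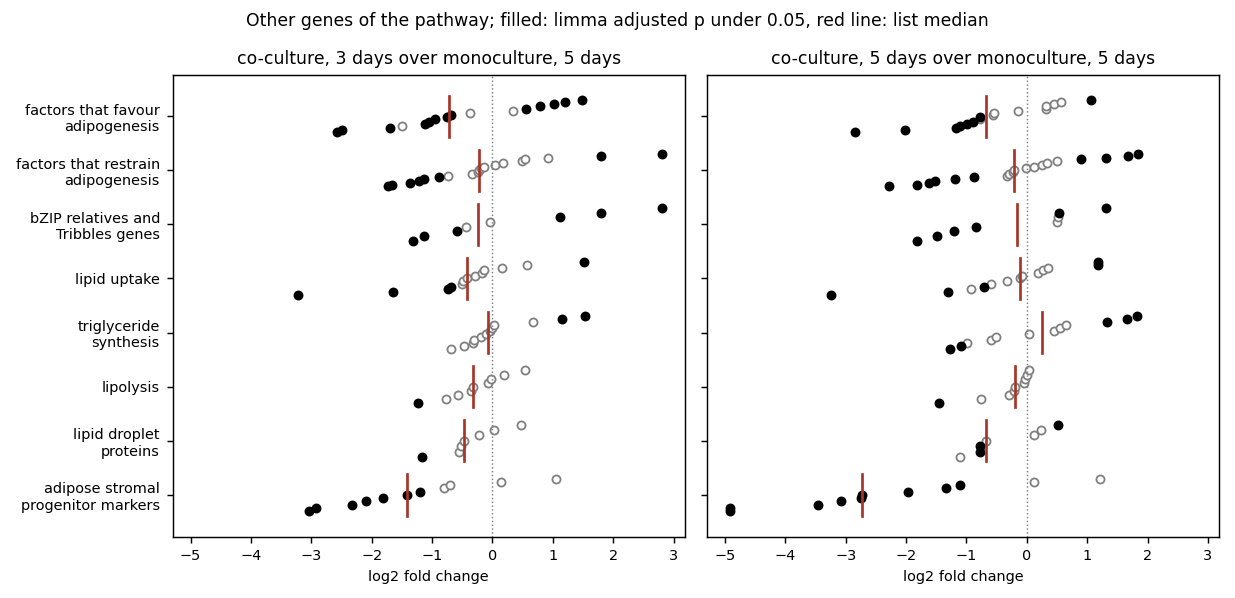
Log2 fold changes (horizontal axes) of the tested genes on 8 lists (rows) after 3 and 5 days of co-culture over monoculture (panels), 1 point per gene, filled where limma adjusted p was under 0.05, with the list median as a red line. Factors listed as favouring and as restraining adipocyte differentiation both spread to either side of 0. By contrast, 9 of 11 progenitor markers lie left of 0 and filled at 5 days, with a median of -2.74, where 11.4% of all genes were lower.

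Markers of adipose stromal progenitors fell in 9 of 11 tested at 5 days and in 7 at 3 days, with 0 higher at either time. Over all genes, 11.4% were lower at 5 days and 9.37% at 3 days. Cd34, counted as lower at both times, passed the filter on low values only because of the monocultures. It averaged 3.13 after 3 days, 0.40 after 5 days and 14.0 in monoculture. Pdgfra and Pdgfrb on this list are also on the list of fibroblast markers used below. Dpt fell to 8.90 ± 1.35 after 5 days against 297.6 ± 50.4 in monoculture, and Pdgfra to 21.0 ± 2.6 against 189.3 ± 55.8 (SD, n = 3 each; limma adjusted p = 2.2e-09 and 2.6e-07). Summed over the 11 markers, the level was 2806 to 3316 after 3 days, 2439 to 2932 after 5 days and 5306 to 7619 in monoculture. Of 12 markers of mature adipocytes, 2 gave values, Fabp4 and Lipe, the gene of hormone-sensitive lipase. Lipe averaged 12.3 after 3 days, 13.0 after 5 days and 21.2 in monoculture and was not called (limma adjusted p = 0.18 and 0.17). The other 10, among them Adipoq, Plin1 and Cidec, were not found under these names among the 11931 genes of the deposited values, and so were not analysed.

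Markers of carcinoma cells differed between the co-cultures and the monocultures, alongside the results against monoculture. Of 16 epithelial or carcinoma markers, 14 had values and 13 were tested. All 13 rose at both times, where 10.6% of all genes were higher at 3 days and 12.6% at 5 days. Epcam and Cldn3 among them passed the filter on low values only through the co-cultures. Their summed level was 1109 to 1272 after 3 days of co-culture, 1098 to 1523 after 5 days and 51.8 to 75 in monoculture, where Cldn3 and Elf3 had no reads. Epcam averaged 20.0 ± 1.5 after 3 days and 18.9 ± 7.4 after 5 days against 0.167 ± 0.289 in monoculture (SD, n = 3 each). Between the co-cultures 0 of the 13 were called higher and 1 lower, Lcn2, where 3.2% of all genes were higher and 3.71% lower. Uncalled markers moved both ways. Krt19 averaged 84.6 after 5 days against 45.5 after 3 days (limma adjusted p = 0.067), and Cldn4 44.3 against 68.5 (limma adjusted p = 0.28). The part of carcinoma RNA in the differences from monoculture, or in those between the co-cultures, was not tested.

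Fibroblast markers were detected in every library. Their summed level over 10 genes was 43599 to 54892 after 3 days, 38936 to 53343 after 5 days and 43955 to 61303 in monoculture. Col1a1 was the largest part of these sums, with means of 21445 after 3 days, 20913 after 5 days and 19220 in monoculture. At 5 days 5 of the 10, Pdgfra among them, were lower while Vim was higher, where 11.4% of all genes were lower and 12.6% higher. The list median at 5 days was -1.36 on the log2 scale. At 3 days 4 were lower and 0 higher, where 9.37% of all genes were lower and 10.6% higher. The 8 measured macrophage markers summed to 127.9 to 377.3 after 3 days, 73.5 to 161.2 after 5 days and 99.6 to 291.4 in monoculture. Of 7 tested, 1 was called against monoculture, Csf1r, which was lower at 5 days, a share near that of all genes. The 2 measured endothelial markers summed to 34.7 to 41.7 after 3 days, 27 to 30.7 after 5 days and 25.5 to 28.3 in monoculture, with no call.

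**Figure D4:**
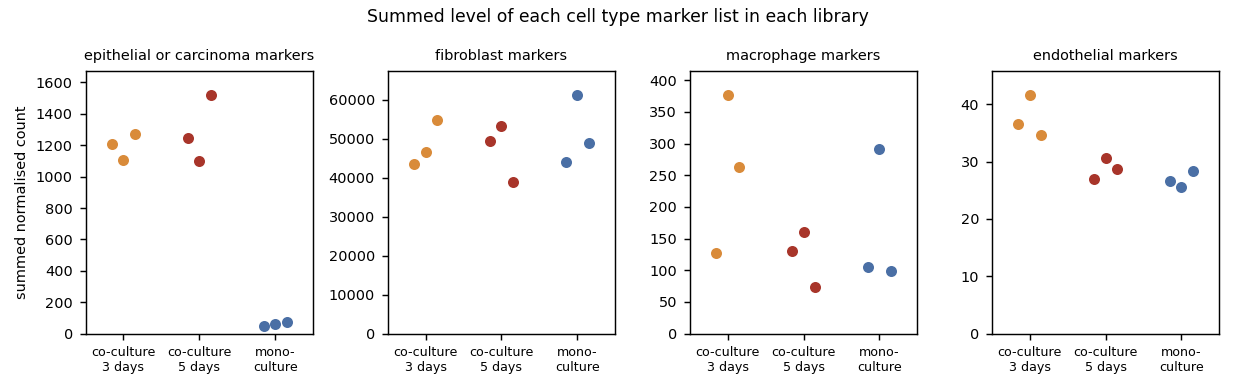
Summed normalised counts (vertical axes, from 0) of 4 lists of cell type markers in each of the 9 libraries, by group. Epithelial or carcinoma markers were at 1098 to 1523 in the 6 co-cultures and 51.8 to 75 in the monocultures, whereas the other 3 lists overlapped between co-culture and monoculture in at least 1 of the co-culture groups.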

How the data were processed

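The authors deposited normalised gene counts for 9 libraries of 3′ end mRNA, a signal whose values, as the deposited numbers show, are read counts scaled by 1 factor per library and given to 1 decimal. Per the submitters' processing notes, bcl2fastq, STAR 2.4.2a, HTSeq and mm10 were used; the annotation, strand setting and way of normalising are not given in the sources used here. Columns were matched to samples by name. For replicate 2 of the co-culture at 5 days, the column name leaves out the carcinoma cells; the match follows because the other 8 columns name every other sample.

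Whole reads were recovered by dividing by the value of 1 read, 0.481 to 1.66 units; 99.66% to 100.0% of values per library were whole within 0.051. Tests used limma 3.58.1 (trend, two-sided) in R 4.3.3 on log2(value + 1), with all 9 libraries in 1 model. Log2 fold changes understate the change of low genes. edgeR 4.0.16 called 2239, 2736 and 677 genes on the recovered reads (3 days and 5 days against monoculture, 5 against 3 days), where limma called 2129, 2552 and 735. Alternatives were pseudocounts of 0.5 and 5, other filters, rescalings, quantile normalization, a replicate block, only the compared groups, edgeR, DESeq2 1.42.0 and leaving out each library. From each list, up to 4 called genes per direction by adjusted p, or the highest gene where none was called, could be named. The text names a selection of these. Pdgfra, Cd34, Lmf1, Angptl4, Lipe, Atf4, Klf15, Vim, Col1a1 and genes that missed a call were also named after their values were seen. The genes and lists were chosen with earlier results of these data known.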

Additional observations from a re-analysis of the deposited data

Results flagged for a closer look

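The differences of the 3-day and of the 5-day co-cultures from the same monocultures were unequal for 4 of the 7 tested genes, by the 5-day over 3-day contrast of the same limma model. Of all 10639 genes, 3.2% were higher and 3.71% lower in that contrast. With no monoculture at 3 days, co-culture time and days in culture cannot be told apart in this contrast. Plin2 was 1.23 higher on the log2 scale at 5 days than at 3 days (adjusted p = 0.00046, higher in 3 of 3 libraries). The same contrast was -1.08 for Cebpb (limma adjusted p = 0.0045), -1.13 for Cebpa (limma adjusted p = 0.026) and -2.26 for Cebpd (limma adjusted p = 0.021). For each of them, all 3 of the 5-day libraries lay below all 3 of the 3-day libraries. The share of all genes that separate in this way was not computed. The calls of Cebpa and Cebpd were lost when single libraries were left out, with the values given above, and the fitted size for Cebpd rests on 2 reads at 5 days.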

How the results depend on the processing

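Over 20 alternatives, 391 of 414 refitted log2 fold changes of the 7 genes kept their direction and their side of the threshold, 16 lost the call, 3 gained it and 4 changed sign. The sign changes were all of Pparg between the co-cultures, never called: 0.072 with quantile normalization and 0.017 with edgeR, and -0.38 to 0.16 when libraries were left out. A mean of at least 20 removed Pparg and Cebpd, leaving 1 gene lower at 3 days and 3 at 5 days. With only the compared groups in the model, 1 gene was lower between the co-cultures. When each library was left out, 0 to 1 gene was higher and 1 to 3 lower at 3 days, 4 to 5 were lower at 5 days, 1 to 3 were lower between the co-cultures, and 311 to 749 of all genes were called between the co-cultures. The lowest of these, 311, was without 3-day replicate 2; without 5-day replicates 1, 2 and 3 the counts were 439, 423 and 450. Without 5-day replicate 2, whose column names no carcinoma cells, 5 genes were still lower and 1 higher against monoculture at 5 days. Deviations from the group means of same-numbered libraries correlated between -0.114 and 0.233, and not every library correlated best with its own number. With 3 libraries per group, these correlations cannot decide whether the replicate numbers pair the libraries. With the replicate number as a block, 2219, 2663 and 827 genes were called and no call of the 7 genes changed. Depth limits Cebpd, Cebpg and Pparg most, each with fewer than 20 reads over the 3 libraries of either co-culture group.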
